A study of Mus musculus with 6 samples.

Results

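The genes described here encode 10 carrier proteins that move bile acids, bile pigments, phospholipid and sterols through the hepatocyte. They were found by their gene symbols, all 10 among the 23291 symbols listed in each file, and were divided by direction of transport into 4 uptake genes (Slc10a1, Slco1a1, Slco1a4 and Slco1b2) and 6 export genes (Abcb11, Abcb4, Abcc2, Abcg5, Abcg8 and Abcc3). RNA was sequenced from liver of C57BL/6 mice. Mice of the dabigatran group were given dabigatran etexilate, at 10 mg/g, mixed into a high fat (Western) diet for 3 months. Mice of the diet group ate the high fat diet alone for the same time. Dabigatran etexilate is the oral prodrug of a direct thrombin inhibitor. The labels give neither age nor sex, and no group on ordinary chow was analysed here, so every value is from a liver under the high fat diet.

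Hepatocytes take bile acids from portal blood across the basolateral membrane and pump them into the bile canaliculus at the opposite side. The sodium-coupled carrier encoded by Slc10a1 (NTCP) takes up conjugated bile acids, and the organic anion carriers of the Slco family take up unconjugated bile acids, bilirubin, hormones and many drugs without sodium. At the canaliculus, Abcb11 (the bile salt export pump), Abcb4 (a phosphatidylcholine floppase), Abcc2 (MRP2, for conjugated bilirubin and other conjugates) and the heterodimer of Abcg5 and Abcg8 (for cholesterol and plant sterols) build bile, while Abcc3 (MRP3) returns conjugates to blood. The bile acid receptor FXR (Nr1h4) and the oxysterol receptor LXR (Nr1h3) are known activators of several of these genes in mouse liver, as are the xenobiotic receptors PXR (Nr1i2) and CAR (Nr1i3).

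The diet group had 3 libraries, called diet replicates 0, 1 and 2. Of the 3 dabigatran files, 2 had the same value for each of the 23291 genes. These, labelled replicates 0 and 1, were counted once, as dabigatran replicate 1, so that with dabigatran replicate 2 this group has n = 2. Depth relative to diet replicate 0 was between 0.761 and 1.0 in all 5 libraries. Diet replicate 1 stood apart from the other diet libraries: on the first principal component of 10247 tested genes, dabigatran replicates 1 and 2 lay at 15.8 and 48.7, and diet replicates 0, 1 and 2 at -29.5, -6.16 and -28.8. Values are FPKM, fragments scaled to gene length and to library size, so that levels can be compared between genes. Differences are on the log2(FPKM + 0.5) scale, dabigatran minus diet, with p-values from limma adjusted over all tested genes. The p-values set each difference against a variance that limma draws partly from all tested genes. With 2 and 3 libraries, they speak only for these few samples.

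The promoter sequences of 4 genes with an unadjusted p under 0.05 between the groups (limma) are shown. Abcc3 was also under that limit but had no window among those scanned. Abcg5 and Abcg8 lie on opposite strands of chromosome 17. In the RefSeq (GRCm38.p6) windows shown they are head to head, with start sites 110 bases apart, so these 300-base promoter windows share 209 bases. In both lines the capitals mark AGATAA, the GATA box, and AGTTCA, a core motif of nuclear receptors, each on either strand and none overlapping another. The windows are chr17:84682962-84683261 on the minus strand for Abcg5 and chr17:84682871-84683170 on the plus strand for Abcg8.
Abcg5: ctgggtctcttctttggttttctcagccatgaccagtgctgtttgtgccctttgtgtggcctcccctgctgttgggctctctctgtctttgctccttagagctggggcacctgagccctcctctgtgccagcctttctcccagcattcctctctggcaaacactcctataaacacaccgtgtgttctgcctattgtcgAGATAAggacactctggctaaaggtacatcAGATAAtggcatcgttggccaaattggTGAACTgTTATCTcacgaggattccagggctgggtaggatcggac
Abcg8: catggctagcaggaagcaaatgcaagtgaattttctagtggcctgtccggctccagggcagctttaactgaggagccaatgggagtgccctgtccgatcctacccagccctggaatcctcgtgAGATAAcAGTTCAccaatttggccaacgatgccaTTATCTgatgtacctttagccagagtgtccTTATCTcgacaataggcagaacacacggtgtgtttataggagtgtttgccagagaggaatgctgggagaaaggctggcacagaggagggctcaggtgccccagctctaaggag
The AGATAA motif occurred 3 times in each window shown, all within the shared bases, and AGTTCA occurred 1 time. A further RefSeq window of Abcg8, chr17:84676052-84676351 on the plus strand, lies within the Abcg5 gene and held neither motif. AGATAA was present in 11.2% of 32851 RefSeq promoter windows of the same length, and 3 or more copies in 0.107%. These matches describe the letters and do not show binding.

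Slco1a4 and Slco1b2 lie in the Slco gene cluster on chromosome 6, and their windows come from the same RefSeq build. The windows are chr6:141856171-141856470 on the minus strand for Slco1a4 and chr6:141629268-141629567 on the plus strand for Slco1b2. Capitals mark AGGTCA and AGTTCA, core motifs of nuclear receptors, and GTTAAT, the core of HNF1 sites, on either strand; no matches overlap.
Slco1a4: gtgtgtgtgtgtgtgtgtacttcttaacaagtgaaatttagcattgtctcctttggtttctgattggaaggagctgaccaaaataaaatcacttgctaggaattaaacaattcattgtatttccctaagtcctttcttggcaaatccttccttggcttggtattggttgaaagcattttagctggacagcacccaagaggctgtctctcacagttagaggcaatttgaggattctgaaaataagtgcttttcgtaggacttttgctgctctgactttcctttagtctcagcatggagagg
Slco1b2: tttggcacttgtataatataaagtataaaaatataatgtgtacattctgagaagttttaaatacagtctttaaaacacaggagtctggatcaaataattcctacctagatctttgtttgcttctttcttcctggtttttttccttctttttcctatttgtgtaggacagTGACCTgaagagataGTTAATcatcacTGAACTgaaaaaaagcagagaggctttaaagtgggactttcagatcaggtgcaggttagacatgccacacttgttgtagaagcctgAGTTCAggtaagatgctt
The Slco1b2 window held AGGTCA 1 time, AGTTCA 2 times and GTTAAT 1 time, and none of these letters were in the Slco1a4 window. AGGTCA was in 16.3%, AGTTCA in 14.0% and GTTAAT in 7.10% of all windows. The spaced repeats of these cores, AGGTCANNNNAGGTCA, AGTTCANNNAGTTCA, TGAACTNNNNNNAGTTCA and AGGTCANTGACCT were in none of the 11 windows scanned, which cover every transporter gene but Abcc3, and in 5, 0, 2 and 3 of the 32851 windows.

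Among the uptake genes, Slco1a4 was higher with dabigatran, Slco1b2 had lower values without passing the adjusted test, and Slc10a1 and Slco1a1 had intervals that span 0. Slco1a4 was the 1 gene of the 10 that passed at an adjusted p under 0.05, where 0.429% of all tested genes passed in either direction and 0.127% as higher. In bulk liver, fewer cells of a type and less RNA per cell cannot be told apart.

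Slco1a4 (ENSMUSG00000030237.14, GRCm38 chromosome 6, 141805440 to 141856199, minus strand) encodes OATP1A4, a sodium-independent carrier of bile acids, digoxin and other organic compounds and a known target of PXR in mouse liver. It had 15.4 and 17.8 FPKM in dabigatran replicates 1 and 2, against 6.11, 5.16 and 4.40 FPKM in diet replicates 0, 1 and 2. Both dabigatran libraries were above every diet library. The means were 16.6 ± 1.70 FPKM (SD, n = 2) with dabigatran and 5.22 ± 0.856 FPKM (SD, n = 3) with diet alone. The log2 difference was 1.59 ± 0.22 (SE), a 3.00-fold rise with a 95% interval of 2.11 to 4.27 (limma, adjusted p = 0.0404), rank 21 of 10247 by p. The values rest on 121 and 126 fragments in the dabigatran libraries and 56, 36 and 39 in the diet libraries, taken as the smallest whole numbers that fit the ratios between libraries. The rise had a log2 difference between 1.48 and 1.70 under every other setting tried, but its call was lost without diet replicate 0 (adjusted p = 0.204), diet replicate 2 (0.224) or dabigatran replicate 2 (0.231). It was also lost with voom on whole fragments (0.0920), without a variance trend (0.0981) and without a filter on low values (0.0835). A term for replicate number in the fit lost the call too. Of the 50-base windows of its transcripts, 1.61% occur in other genes, mostly Slco1a5, which was listed at 0 in all 5 libraries, as was Slco1a6.

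Slco1b2 (ENSMUSG00000030236.10, chromosome 6, 141629518 to 141686646, plus strand) encodes OATP1B2, the hepatocyte carrier of unconjugated bile acids and bilirubin and the mouse counterpart of human OATP1B1 and OATP1B3. It had 271 and 282 FPKM in the dabigatran libraries, against 422, 501 and 460 FPKM in the diet libraries. The groups did not overlap, and the gap between them was wider than the spread within either. The log2 difference was -0.73 ± 0.17 (SE), a fold of 0.601 with a 95% interval of 0.459 to 0.788 (limma, adjusted p = 0.101). It did not pass under any setting tried, with adjusted p from 0.0811 to 0.334.

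Slc10a1 (ENSMUSG00000021135.8, chromosome 12, 80953183 to 80968705, minus strand) had 268 and 286 FPKM in the dabigatran libraries, against 233, 245 and 212 FPKM in the diet libraries. Its values were slightly above all diet values with dabigatran, and the difference of 0.27 on the log2 scale had a 95% interval of -0.11 to 0.65 (limma, adjusted p = 0.464). Slco1a1, which encodes OATP1A1, a carrier of bile acids and steroid conjugates with higher levels in male than in female mouse liver, had 82.8 and 104.7 FPKM with dabigatran, against 77.7, 126 and 54.7 FPKM in the diet libraries. The groups overlapped, and the diet libraries spanned the dabigatran values on both sides. Its log2 difference was 0.20, with a 95% interval of -0.55 to 0.94 (limma, adjusted p = 0.807).

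Slc10a1 and Slco1b2 stood at the same level with dabigatran but not with diet alone. The ratio of Slc10a1 to Slco1b2 FPKM was 0.987 and 1.01 in dabigatran replicates 1 and 2, against 0.552, 0.488 and 0.460 in diet replicates 0, 1 and 2. Slco1b2 made up 41.7 ± 1.22% of the summed FPKM of the uptake genes with dabigatran (SD, n = 2) and 59.1 ± 3.35% with diet alone (SD, n = 3), and Slc10a1 made up 41.7 ± 0.438% and 29.5 ± 1.87%. Slco1a4 remained a minor part of that sum, at 2.50 ± 0.115% with dabigatran and 0.672 ± 0.134% with diet alone. As a share of Slco1a1 in the same cluster, whose start site is 90742 bases away, Slco1a4 was at 18.6% and 17.0% in the dabigatran libraries, against 7.86%, 4.10% and 8.05% in the diet libraries. These shares are descriptions of the files, with no test.

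**Figure D1:**
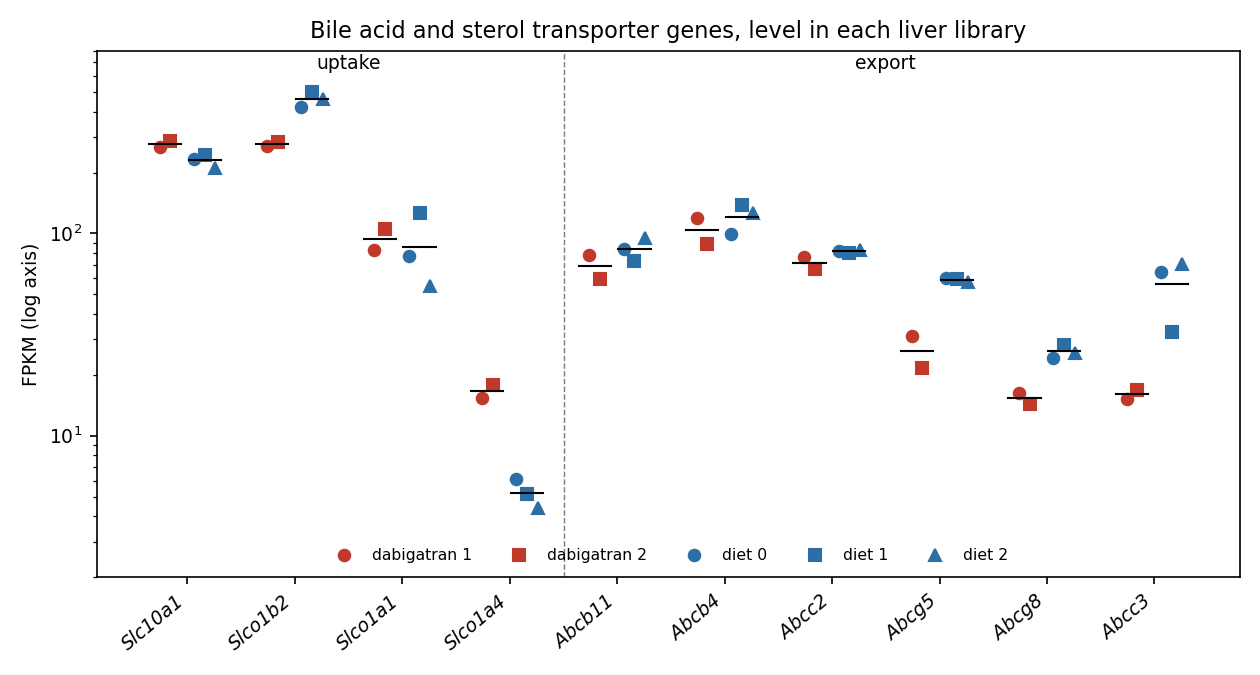
Level of each transporter gene in FPKM on a log axis, with 1 point per library (red, dabigatran replicates 1 and 2; blue, diet replicates 0, 1 and 2) and a bar at each group mean; uptake genes are left of the dashed line and export genes right of it. Slco1a4 has 15.4 and 17.8 FPKM with dabigatran, above all diet points, and Slc10a1 also has both dabigatran points above them. Slco1b2, Abcg5, Abcg8, Abcc3 and, by a narrow gap, Abcc2 have both dabigatran points below all diet points.

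All 6 export genes had a log2 difference below 0, with a median of -0.52, and none passed the adjusted test in limma, while 3 were lower at an unadjusted p under 0.05. Of all 10247 tested genes 51.9% had a difference above 0, and their median was 0.02. As lower, 0.303% passed and 9.13% had an unadjusted p under 0.05. The lower values were those of Abcg5, Abcg8 and Abcc3, while Abcb11, Abcb4 and Abcc2 had intervals that span 0. Both dabigatran libraries lay below all diet libraries in 4 of the 6 (Abcg5, Abcg8, Abcc3 and Abcc2) and above them in 0. Over all tested genes the groups did not overlap in 34.4%, with dabigatran below diet in 17.2% and above it in 17.2%.

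Abcg5 (ENSMUSG00000040505.13, chromosome 17, 84658234 to 84683011, minus strand) and Abcg8 (ENSMUSG00000024254.15, chromosome 17, 84676302 to 84700333, plus strand) encode sterolin-1 and sterolin-2, which work only as a pair. Abcg5 had 31.1 and 21.6 FPKM in dabigatran replicates 1 and 2, against 59.9, 59.3 and 57.8 FPKM in diet replicates 0, 1 and 2. The diet libraries were close together, with a mean of 59.0 ± 1.08 FPKM (SD, n = 3), and both dabigatran libraries were far below them, with a mean of 26.4 ± 6.72 FPKM (SD, n = 2). The log2 difference was -1.17 ± 0.20 (SE), a fold of 0.445 with a 95% interval of 0.324 to 0.611 (limma, adjusted p = 0.0639). The gene ranked 57 of 10247 by p. Of 15 other settings it passed in 2, of which 1 left a single dabigatran library. It passed without diet replicate 1 (limma, adjusted p = 0.0393). Without dabigatran replicate 1, where 1 dabigatran library remains, the log2 difference was -1.43.

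Abcg8 had 16.3 and 14.4 FPKM with dabigatran, against 24.4, 28.2 and 25.7 FPKM in the diet libraries. Each dabigatran value was lower than each diet value, and the difference was smaller than that of its partner. Its log2 difference was -0.75 ± 0.18 (SE), a fold of 0.595 with a 95% interval of 0.446 to 0.793 (limma, adjusted p = 0.109). The ratio of Abcg5 to Abcg8 FPKM was 1.91 and 1.51 in the dabigatran libraries, against 2.46, 2.10 and 2.25 in the diet libraries. Exons of the pair overlap on opposite strands, and 1.24% of the Abcg5 windows and 0.897% of the Abcg8 windows occur in the other gene.

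Abcc3 (ENSMUSG00000020865.16, chromosome 11, 94343295 to 94392997, minus strand) had the largest difference among the 10 genes. It had 15.3 and 16.8 FPKM in the dabigatran libraries, against 64.7, 32.4 and 70.7 FPKM in diet replicates 0, 1 and 2. The dabigatran libraries were alike and below all diet libraries, and diet replicate 1 lay between the dabigatran values and those of diet replicates 0 and 2. The log2 difference was -1.69 ± 0.32 (SE), a fold of 0.309 with a 95% interval of 0.184 to 0.518 (limma, adjusted p = 0.0714). Without diet replicate 1 the difference was -2.04 and passed (limma, adjusted p = 0.00603), the 1 setting of 15 alternatives in which it did. The values rest on 159 and 158 fragments with dabigatran and on 787, 300 and 831 with diet alone.

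Abcc3 is also made by bile duct cells, so markers of these were read beside it. Of 12 cholangiocyte markers, 5 were tested and none passed (1 higher at an unadjusted p under 0.05), and the summed FPKM of the list was 81.6 and 60.1 in the dabigatran libraries, against 102, 86.0 and 88.3 in the diet libraries. The sum was mostly Spp1 and Aqp1, which other liver cells also express. Their part in the result was not tested. The defining markers Krt19, Krt7, Epcam and Cftr were under 1 FPKM in every library, with Krt19 listed at 0 in dabigatran replicate 2 and diet replicates 1 and 2. Of 12 hepatocyte markers none passed, and 6 were higher at an unadjusted p under 0.05, beside 6.87% of all tested genes. The median difference of these markers was 0.37, with 9 positive and 3 negative. Their summed FPKM was 49215 and 67330 with dabigatran, against 48616, 50051 and 54062 with diet alone. Of 7 adipocyte markers 3 were tested, and Cfd and Car3 fell. Fabp4, also tested, had overlapping groups and a log2 difference of -0.05. The summed FPKM of that list was 146 and 127 in the dabigatran libraries, against 1871, 570 and 1771 in diet replicates 0, 1 and 2. Most of that sum was Car3, so it mainly describes that gene. Lep and Plin1 were listed at 0 in all 5 libraries, and Adipoq and Retn were under 1 FPKM. The part of adipocytes in the result was not tested.

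Abcb11 (ENSMUSG00000027048.15, chromosome 2, 69238282 to 69342616, minus strand) had 78.3 and 59.6 FPKM with dabigatran, against 83.9, 73.1 and 95.3 FPKM in the diet libraries. The groups overlapped, since dabigatran replicate 1 lay above diet replicate 1. The log2 difference of the bile salt pump was -0.29, with a 95% interval of -0.75 to 0.17 (limma, adjusted p = 0.518). Its exons overlap those of Gm13613 and Gm13614 on the opposite strand.

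Abcb4 had 120 and 88.6 FPKM with dabigatran, against 99.0, 137 and 126 FPKM in the diet libraries, with overlapping groups and a log2 difference of -0.21 (95% interval -0.71 to 0.28). Abcc2 had 76.5 and 67.0 FPKM with dabigatran, against 82.2, 80.1 and 82.7 FPKM in the diet libraries. For Abcc2 the dabigatran values were below the narrow range of the diet values, with a log2 difference of -0.19 (95% interval -0.56 to 0.18). These intervals allow a lower level of each pump by a fold of 0.595 for Abcb11, 0.612 for Abcb4 and 0.678 for Abcc2, and a higher one by 1.12, 1.21 and 1.14. Adjusted p was 0.658 for Abcb4 and 0.606 for Abcc2 (limma).

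**Figure D2:**
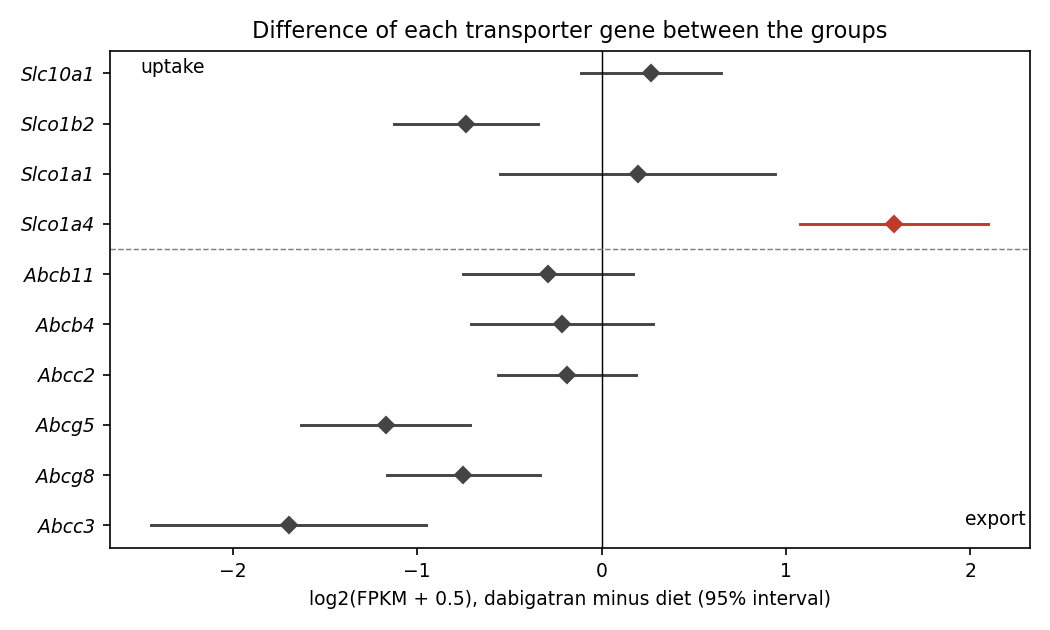
Log2 difference of each transporter gene, dabigatran minus diet, as a diamond with its 95% interval from the limma fit; red marks an adjusted p under 0.05. Slco1a4 lies at 1.59, Slco1b2 at -0.73, and the export genes run from -0.19 for Abcc2 to -1.69 for Abcc3.

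By level, the order of the genes differed between the groups at both ends. With dabigatran, Slc10a1 and Slco1b2 led with means of 277 and 276 FPKM and overlapping ranges, and Abcb4 and Slco1a1 followed at 104 and 93.8 FPKM, also overlapping. Below them came Abcc2 and Abcb11 at 71.8 and 68.9 FPKM with overlapping ranges, then Abcg5 at 26.4 FPKM, and last Slco1a4, Abcc3 and Abcg8 at 16.6, 16.0 and 15.3 FPKM, neighbours whose ranges overlap. With diet alone, Slco1b2 led at 461 FPKM, apart from Slc10a1 at 230 FPKM. Abcb4, Slco1a1, Abcb11 and Abcc2 followed at 121, 86.1, 84.1 and 81.6 FPKM with each overlapping the next, and then Abcg5 and Abcc3 at 59.0 and 56.0 FPKM, which overlapped. Abcg8 at 26.1 FPKM and Slco1a4 at 5.22 FPKM stood apart at the low end. Among all tested genes the mean of Slco1a4 was at percentile 74.5 with dabigatran and 42.7 with diet alone.

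Summed over the uptake genes, FPKM was 637 and 690 in dabigatran replicates 1 and 2, against 739, 877 and 731 in diet replicates 0, 1 and 2. Over the export genes it was 337 and 268 with dabigatran, against 414, 411 and 458 with diet alone. Both sums were lower in the dabigatran libraries than in any diet library. The ratio of uptake to export was 1.89 and 2.57 with dabigatran, against 1.79, 2.14 and 1.60 with diet alone, so the groups overlapped. When each gene weighs equally, as a mean of log2 values, uptake differed by 0.33 and export by -0.72. The sign for uptake therefore depends on whether the genes are summed or averaged on the log scale.

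**Figure D3:**
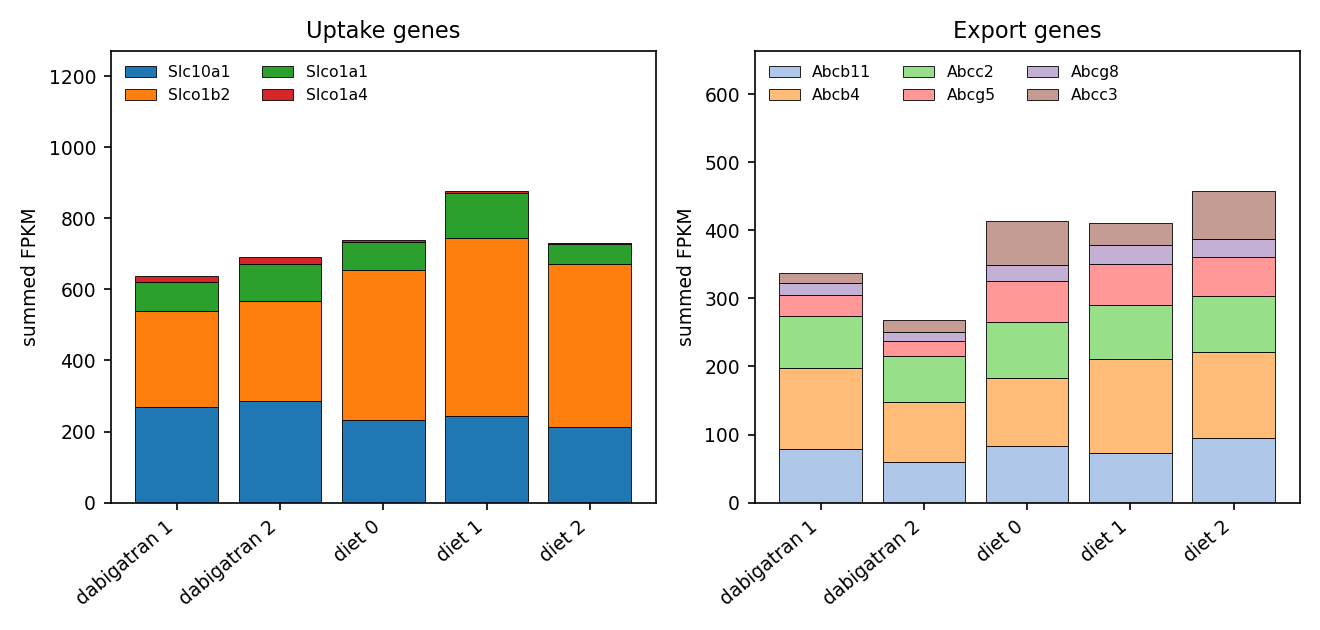
Summed FPKM of the 4 uptake genes (left) and the 6 export genes (right) in each library, with 1 coloured block per gene. The uptake bars hold near-equal blocks of Slc10a1 and Slco1b2 with dabigatran and a larger Slco1b2 block with diet alone, and the export bars reach 337 and 268 with dabigatran and 411 to 458 with diet alone.

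Unadjusted p was under 0.05 for 5 of the 10 genes (Slco1a4 higher; Slco1b2, Abcg5, Abcg8 and Abcc3 lower), where it was for 16.0% of all tested genes, 6.87% as higher and 9.13% as lower. The groups did not overlap in 7 of the 10, beside 34.4% of all tested genes. Since the genes were chosen with earlier results of these data known, these counts describe them and carry no test.

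Other uptake carriers gave no call in limma. Of 15 listed, 9 were tested, and the median was 0.10. At an unadjusted p under 0.05, 2 were higher and 1 lower, beside 6.87% and 9.13% of all tested genes. The prostaglandin carrier gene Slco2a1 had 8.30 and 9.88 FPKM with dabigatran, against 5.77, 3.79 and 4.80 FPKM with diet alone (limma, adjusted p = 0.151). The nucleoside carrier gene Slc29a1 had 60.5 and 83.2 FPKM, against 42.2, 39.8 and 47.3 FPKM with diet alone (adjusted p = 0.145), and the carnitine carrier gene Slc22a5 had an adjusted p of 0.419. For Slco2a1 and Slc29a1 the groups did not overlap, as in 34.4% of all tested genes. Slco2b1, the remaining well expressed gene of the Slco family, had 26.7 and 32.2 FPKM, against 30.1, 24.8 and 27.3 FPKM with diet alone.

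Other export pumps gave no call either. Of 15 listed names, 6 genes were tested, and the median was -0.11. At an unadjusted p under 0.05, 0 were higher and 2 lower, beside 6.87% and 9.13% of all tested genes. Abcg2 (BCRP, a canalicular pump of sulfated conjugates and drugs) had 29.0 and 28.4 FPKM with dabigatran, against 50.6, 52.0 and 50.4 FPKM with diet alone. Its values lay close together within each group, and the log2 difference was -0.82 ± 0.16 (SE; limma, adjusted p = 0.0751). Slc47a1 (MATE1, which exports organic cations) had 28.6 and 28.2 FPKM, against 49.3, 39.3 and 43.6 FPKM with diet alone (adjusted p = 0.160). The flippase gene Atp8b1, which keeps the canalicular membrane stable, had a log2 difference of 0.29 (adjusted p = 0.543), and Abcc10 one of -0.23 (adjusted p = 0.775). Abcc6 (MRP6), another basolateral carrier, had 19.0 and 19.0 FPKM, against 20.1, 13.5 and 20.2 FPKM with diet alone, with overlapping groups (adjusted p = 0.856). Abcc4 (MRP4) was low, with 0.782 and 0.675 FPKM, against 0.931, 0.489 and 0.462 FPKM with diet alone. Under its older symbol Osta, Slc51a was listed at 0 in all 5 libraries. Ostb, now Slc51b, was listed at 0 in 3 of them and had 1.65 FPKM in dabigatran replicate 1 and 1.47 FPKM in diet replicate 2.

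Genes of cholesterol transport gave no call among 14 tested of 16, with a median of 0.02. At an unadjusted p under 0.05, 1 was higher and 1 lower, beside 6.87% and 9.13% of all tested genes. Abca1, which loads cholesterol onto apolipoprotein A1 and is a target of LXR, had 32.8 and 54.1 FPKM with dabigatran, against 29.1, 31.1 and 23.3 FPKM with diet alone (limma, adjusted p = 0.296). Abcg1, another LXR target, had 1.39 and 1.46 FPKM, against 1.97, 2.03 and 1.82 FPKM with diet alone (adjusted p = 0.598). For these genes as for Abcg5 and Abcg8 the groups did not overlap, with Abca1 above the diet values and Abcg1, Abcg5 and Abcg8 below them. Over all tested genes the share without overlap was 34.4%. Soat2, which esterifies cholesterol, had 11.0 and 4.53 FPKM, against 11.9, 11.4 and 21.3 FPKM with diet alone (adjusted p = 0.294). The cholesterol-binding protein gene Stard5 and the HDL receptor gene Scarb1 had log2 differences of 0.30 and 0.12 (adjusted p = 0.419 and 0.756).

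Of 26 regulators known to act on these genes or on bile acid balance, 24 were tested and none passed, with a median difference of 0.18. At an unadjusted p under 0.05, 6 were higher and 2 lower, beside 6.87% and 9.13% of all tested genes. LXR alpha (Nr1h3) had 40.1 and 38.6 FPKM, against 39.1, 35.8 and 44.6 FPKM with diet alone, a log2 difference of -0.01 whose sign turned in 3 alternatives. FXR (Nr1h4) had 43.6 and 56.9 FPKM, against 47.5, 38.1 and 40.6 FPKM with diet alone, with overlapping groups (limma, adjusted p = 0.573). PXR (Nr1i2) and CAR (Nr1i3) had log2 differences of 0.15 and 0.27 (adjusted p = 0.744 and 0.512).

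The dabigatran libraries disagreed on Nr0b2 (SHP), the FXR-induced repressor of bile acid synthesis. It had 22.3 FPKM in dabigatran replicate 1 and 0.562 FPKM in dabigatran replicate 2, on 44 fragments and 1 fragment, against 14.8, 21.7 and 14.4 FPKM with diet alone (limma, adjusted p = 0.434). Cyp7a1, whose enzyme catalyses the limiting step from cholesterol to bile acids, had 35.2 FPKM in dabigatran replicate 1 and 267 FPKM in dabigatran replicate 2, against 22.7, 8.10 and 16.1 FPKM with diet alone (adjusted p = 0.149). Dabigatran replicate 2, with the lower Nr0b2 and the higher Cyp7a1, also had the lower Abcb11, at 59.6 FPKM, against 78.3 FPKM in dabigatran replicate 1. Without dabigatran replicate 1 both genes passed, Nr0b2 at a log2 difference of -4.01 (limma, adjusted p = 0.00494) and Cyp7a1 at 4.17 (adjusted p = 0.0135). Without dabigatran replicate 2 the Nr0b2 difference was 0.41. A relation between these genes cannot be read from 2 libraries. Of the 24 tested regulators, 9 were above all diet values in both dabigatran libraries, among them Ahr, Rxra, Hnf4a and Nr1i3. Below all diet values were 2, Nfe2l2 and Ppara. Over all tested genes, 17.2% lay above and 17.2% below. LXR beta (Nr1h2), also among the 9, had 16.0 and 14.6 FPKM, against 11.2, 10.3 and 10.7 FPKM with diet alone (limma, adjusted p = 0.259). Ppara, the receptor for fatty acids and fibrates, had 41.4 and 20.2 FPKM, against 51.9, 50.2 and 43.8 FPKM with diet alone (adjusted p = 0.269). Nfe2l2 (NRF2) is a known activator of Abcc2 and Abcc3 in mouse liver. Nfe2l2 had 16.5 and 15.8 FPKM, against 27.6, 19.9 and 32.7 FPKM with diet alone (limma, adjusted p = 0.219). Whether it bears on Abcc2 or Abcc3 in these livers was not tested.

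Enzymes of bile acid synthesis and conjugation had a median difference of 0.36 over 14 tested of 17, and 1 rose. Cyp39a1, an oxysterol hydroxylase, rose with 6.95 and 11.8 FPKM with dabigatran, against 1.11, 1.27 and 1.86 FPKM with diet alone (limma, adjusted p = 0.0404). It no longer passed without a filter on low values (adjusted p = 0.0860), without a variance trend (0.0981), or when diet replicate 0 (0.204), diet replicate 2 (0.202) or dabigatran replicate 2 (0.231) was left out. Cyp8b1, which sets the share of cholic acid, had 415 and 513 FPKM, against 225, 325 and 209 FPKM with diet alone (adjusted p = 0.131), and it passed without diet replicate 1 (0.0257). Cyp2c70, which makes muricholic acids in mice, had 190 and 318 FPKM, against 90.7, 133 and 116 FPKM with diet alone (adjusted p = 0.101), and it passed without dabigatran replicate 1 (0.0381). Unadjusted p was under 0.05 for 7 of these enzymes as higher and 1 as lower, beside 6.87% and 9.13% of all tested genes.

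Proteins that hold transporters at the membrane or keep the canaliculus tight gave no call among 16 tested of 17, with a median of -0.13. At an unadjusted p under 0.05, 1 was higher and 3 lower, beside 6.87% and 9.13% of all tested genes. Pdzk1, a scaffold known to bind OATP1A1 and the HDL receptor in mouse liver, had 10.4 and 12.3 FPKM, against 20.0, 17.5 and 24.1 FPKM with diet alone (limma, adjusted p = 0.124). Radixin (Rdx), which ties MRP2 to the canalicular membrane, had 44.5 and 40.7 FPKM, against 63.4, 61.9 and 53.2 FPKM with diet alone (adjusted p = 0.240). The tight junction gene Cldn2 had 33.0 and 22.2 FPKM, against 42.4, 41.9 and 39.8 FPKM with diet alone (adjusted p = 0.220). Vipar, a trafficking gene, had 8.66 and 7.19 FPKM, against 5.52, 4.76 and 5.22 FPKM with diet alone (adjusted p = 0.259). In each of these genes, named in part for their low p, the groups did not overlap, as in 34.4% of all tested genes.

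**Figure D4:**
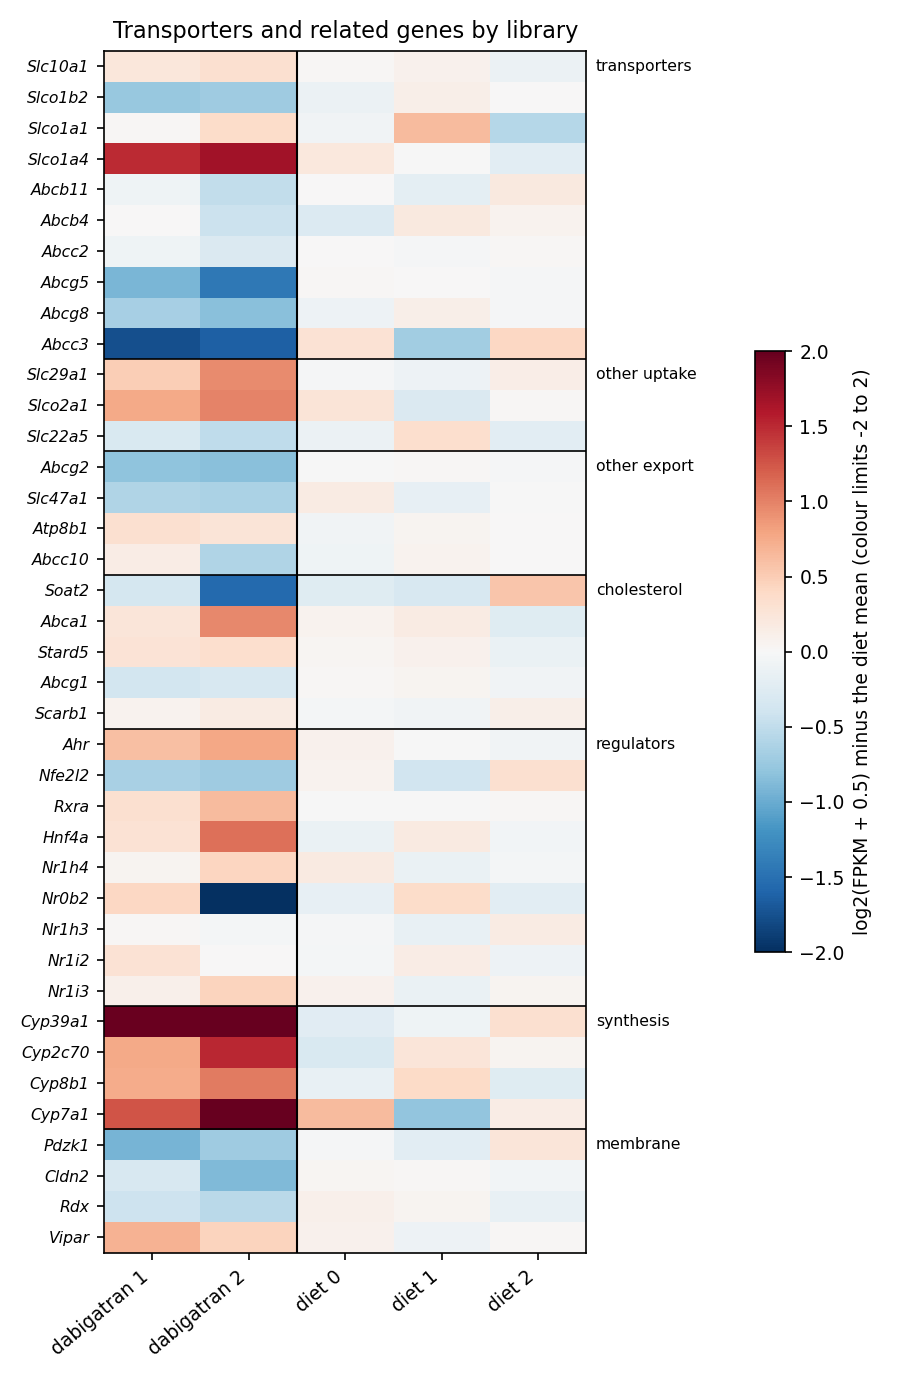
Log2(FPKM + 0.5) of the 10 transporters and the related genes named in the text by rule, in each library, minus the mean of the diet libraries; red is higher, blue is lower, and colours saturate beyond -2 and 2. Slco1a4 and Cyp39a1 are red in both dabigatran columns, Abcg5, Abcg8, Abcc3, Slco1b2 and Abcg2 are blue in both, and Nr0b2 differs between them.

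In mouse liver Slco1a1 is known as a male-predominant gene and Slco1a4 as a female-predominant one, so genes that differ by sex were read beside them. The Y-linked genes Ddx3y, Kdm5d, Uty and Eif2s3y were expressed in every library, between 2.40 and 27.8 FPKM, and Xist was at most 0.0430 FPKM. Of 14 male-predominant liver genes, Slco1a1 among them, none passed. At an unadjusted p under 0.05, 4 were higher and 1 lower, beside 6.87% and 9.13% of all tested genes. Differences were positive in 10 and negative in 4, where 51.9% of all tested genes were positive. Summed FPKM of the 14, mostly Mup20, was 27044 and 30907 with dabigatran, against 13018, 26198 and 12999.8 in diet replicates 0, 1 and 2. Diet replicate 1 was high in this sum, as for Slco1a1. Mup20 overlapped between the groups (limma, adjusted p = 0.591). Serpina1e, also in the sum, had 6474 and 10006 FPKM with dabigatran, against 418, 2768 and 441 FPKM with diet alone (adjusted p = 0.0915). Of 15 female-predominant genes 4 were tested, and Slco1a4 and Cyp17a1 rose. At an unadjusted p under 0.05, 3 were higher and 1 lower, beside the same shares of all tested genes. Fmo2 had 5.001 and 8.49 FPKM with dabigatran, against 3.03, 2.98 and 2.09 FPKM with diet alone (limma, adjusted p = 0.131). Acot3 had 1.93 and 1.07 FPKM with dabigatran, against 10.3, 1.74 and 8.04 FPKM with diet alone, the 1 tested gene of this list with a negative difference (adjusted p = 0.267). Cyp17a1 had 24.0 and 47.9 FPKM with dabigatran, against 1.93, 5.08 and 3.25 FPKM with diet alone (limma, adjusted p = 0.0404). The female-predominant genes Cyp2b13, Cyp3a41a, Cyp3a41b, Sult2a1 and Sult3a1 were listed at 0 in all 5 libraries.

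The tested genes whose profile over the 5 libraries was most like a transporter's were found by the Euclidean distance between log2 values taken relative to the diet mean. For Slco1a4 the nearest were Acacb at 0.25, 1700113A16Rik at 0.35 and Pla2g7 at 0.44 log2 units. For Abcg5 they were Fabp2 (0.16), Mrps18c (0.18) and Samd9l (0.18), and for Abcc3 they were Scand1 (0.20), Gstm6 (0.25) and Ces1e (0.34). For Slco1b2 they were Hn1l (0.11), Mettl8 (0.15) and 1110057K04Rik (0.16). Over 5 libraries and 10247 genes, small distances are common, and they are given as a description.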

How the data were processed

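Total RNA of snap frozen liver went into libraries prepared by TruSeq chemistry, according to the labels. The authors deposited 1 FPKM value per gene symbol and library, per the file headers. The submitters' processing notes name TopHat2 2.0.4, Cuffdiff and CASAVA, besides R 2.15.1, and the builds mm10 and GRCm38, without roles. How multiply mapped reads and strand were handled, and which annotation was used, is not given in the sources used here. Since FPKM is scaled to the library total, a few abundant genes can shift the others, and the 10 most abundant held 20.7% to 24.5% of it.

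Since the files hold FPKM and not counts, a count-based method (voom) was run only as an alternative, on recovered whole fragments. A gene was tested if 3 or more of the 5 distinct libraries reached 1 FPKM. limma 3.58.1 in R 4.3.3 compared the groups on log2(FPKM + 0.5), with a variance trend, two-sided, and Benjamini-Hochberg adjustment over 10247 genes. Whether the assumptions of this fit hold for FPKM from so few libraries was not tested. Fold changes on this scale understate those of low genes. Relative depth came from the steps of values under 0.3 FPKM. With it, the values of 80.6% of tested genes came out as whole fragments (relative tolerance 2e-05), as did 2.40% of 1000 genes whose values had been shifted. Slc10a1 was not among them. Fragment numbers given are the smallest whole numbers and cover counting error only.

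The transporters and all gene lists were chosen with earlier results of these data known. Related genes are named as up to 4 per list in order of unadjusted p, plus Nr1h4, Nr0b2, Nr1h3, Nr1i2, Nr1i3, Cyp7a1, Abca1, Abcg1, Abcc4, Slc51b, Atp8b1, Scarb1 and Pdzk1. Of the genes this rule picks, 1 is not reported here. Others named (Slco2b1, Abcc6, Nr1h2, Ppara, Slco1a5, Slco1a6, Osta, Ostb, Cyp17a1 and markers) were chosen after their values were seen. Coordinates are from GENCODE M21 (GRCm38) and promoter sequences from RefSeq (GRCm38.p6). Markers of macrophages, endothelial cells, stellate cells, lymphocytes and erythroid cells gave 0 calls in each list by limma, and at most 1 gene in either direction per list at an unadjusted p under 0.05. In the list for adipocytes Cfd and Car3 were lower and Fabp4 gave no call. In the list for gut and pancreas Fabp2, which liver also expresses, was lower. Dabigatran replicate 0 was not used here beyond its comparison with replicate 1.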

Additional observations from a re-analysis of the deposited data

How the results depend on the processing

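The counts of called genes depended on the settings and on single libraries. Of all tested genes 44 were called (13 higher, 31 lower), against 23 with a pseudocount of 0.1, 27 after quantile normalization, 11 with voom on whole fragments, and 0 without a filter on low values or without a variance trend (at an unadjusted p under 0.05, 816 higher with 1117 lower, and 692 higher with 870 lower). On the same genes as voom, the usual settings gave 41, an alternative chosen after seeing the data. Leaving out 1 library gave 0 to 294 calls, with 294 without diet replicate 1, 275 without dabigatran replicate 1 and at most 1 in the other cases. With 1 dabigatran library left, that library is assumed to vary like the diet group. The transporters called were 1 in the main comparison, 0 without a filter, without a variance trend or with voom (Slc10a1, with no whole fragments, was left out there), and between 0 and 3 with 1 library left out. Over all alternatives 136 of 148 transporter values kept direction and side of the threshold, most of them from genes with no call to lose. Slco1a4, the 1 gene called in the main comparison, lost its call in 7 of 15 alternatives. The sign turned for Slco1a1 without diet replicate 2 (-0.087, leave-one-out range to 0.51) and for Abcb4 without dabigatran replicate 2 (0.000924, range from -0.43). Among related genes it turned for Nr1h3 after quantile normalization (0.040), without diet replicate 2 (0.072, range from -0.084) and without dabigatran replicate 2 (0.02), and without dabigatran replicate 2 also for Abcc10 (0.15, range from -0.60) and Nr0b2 (0.41, range from -4.01).

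A replicate block called 13 genes and 0 transporters, with Slco1a4 at an adjusted p of 0.0743 and Cyp7a1 called at 0.0356. The deviations of same-numbered libraries from their group means had correlations of -0.04 and -0.03 for replicates 1 and 2. With 2 dabigatran libraries these deviations mirror each other within the group. The correlations are therefore not independent and cannot show whether same-numbered libraries were paired.

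The summed log2 differences were -0.23 for uptake, -0.51 for export and 0.27 for their ratio. As means of log2 values they were 0.33, -0.72 and 1.05. Leaving out 1 library moved them between -0.29 and -0.15, between -0.67 and -0.34, and between 0.049 and 0.50. The cause was not tested. Genes with few fragments, such as Nr0b2 in dabigatran replicate 2, limit what can be read at this depth.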
